A study of Mus musculus with 3 samples.

Results

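Ubiquitin and the hydrolases that trim it were followed in mouse round spermatids, the haploid germ cells that will compact their chromatin and lose most of their histones. The 4 genes Ubb, Uchl1, Uchl3 and Uchl5 were taken by symbol from a table of 17946 genes, and all 4 were present with a value in every library. Round spermatids had been sorted on Hoechst staining from testes of C57BL/6 males aged 28 days. The groups were wild-type, MiwiΔIns and MiwiR371W, with 1 library each. MiwiΔIns and MiwiR371W carry altered alleles of Miwi (Piwil1), a PIWI protein of meiotic and postmeiotic germ cells. The labels give neither the zygosity nor the number of animals pooled for a library. No difference below therefore has a replicate check, and no test between genotypes was possible.

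Ubiquitin is a small protein that is joined to other proteins, often marking them for the proteasome. It is never made free: Ubb encodes a head-to-tail chain of ubiquitin units, while Rps27a encodes 1 unit fused to a protein of the small ribosomal subunit. Ubiquitin C-terminal hydrolases (UCH) cut small groups and peptides from the tail of ubiquitin. In the mouse testis, UCHL1 is known as a protein of spermatogonia and UCHL3 as a protein of spermatocytes and spermatids, and mice without Ubb are infertile with germ cells that stop in meiosis.

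The sequences of Ubb and Rps27a show how alike their ubiquitin units are. How far reads can be assigned to 1 gene also depends on copies elsewhere in the genome, which are given further below. In the GENCODE M21 transcripts (GRCm38), Ubb encodes 4 units and Rps27a encodes 1. All of these units are identical as proteins over 76 residues. As DNA, the other Ubb units differed from the first at 2 to 10 of 228 bases, and the Rps27a unit differed at 44. The first 90 bases of units are printed 5′ to 3′ on the gene's own strand, and capitals mark bases that differ from the first Ubb unit. The Ubb stretches lie at chr11:62552146-62552235 (first unit) and chr11:62552374-62552463 (second unit), plus strand, within 1 exon. That of Rps27a spans 2 exons of chr11:29547219-29547728, minus strand, and is printed without the intron.
Ubb, first unit: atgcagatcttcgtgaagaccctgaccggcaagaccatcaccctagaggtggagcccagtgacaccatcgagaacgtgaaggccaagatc
Ubb, second unit: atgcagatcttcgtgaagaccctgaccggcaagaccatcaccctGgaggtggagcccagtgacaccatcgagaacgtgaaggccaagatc
Rps27a, single unit: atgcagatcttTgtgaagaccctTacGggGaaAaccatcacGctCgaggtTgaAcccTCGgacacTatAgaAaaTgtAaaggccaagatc

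The UCH genes differ in sequence around the codon of the catalytic cysteine, which is TGT in each gene shown, and Uchl4 stands closest to Uchl3. Each stretch below holds 63 coding bases, with the codon of that cysteine in capitals. The codon is number 90 in Uchl1, 95 in Uchl3 and in Uchl4, and 88 in Uchl5. Positions are chr5:66679726-66679788 for Uchl1, chr14:101666581-101666643 for Uchl3, chr9:64235491-64235553 for Uchl4 and chr1:143786221-143794324 for Uchl5, all on the plus strand. The Uchl5 stretch spans 2 exons.
Uchl1: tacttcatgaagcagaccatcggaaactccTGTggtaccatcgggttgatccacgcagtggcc
Uchl3: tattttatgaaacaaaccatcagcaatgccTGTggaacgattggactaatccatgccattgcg
Uchl4: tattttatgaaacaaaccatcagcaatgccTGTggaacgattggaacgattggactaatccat
Uchl5: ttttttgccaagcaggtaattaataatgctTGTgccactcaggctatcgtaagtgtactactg
Over aligned coding bases Uchl4, a single-exon gene, was 97.4% identical to the 9-exon Uchl3. As proteins UCHL1 and UCHL3 were 55.0% identical, UCHL3 and UCHL5 33.0%, and UCHL1 and UCHL5 25.6%.

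Values are the authors' deposited signal, which by its steps is relative to transcript length, so levels of different genes can be set side by side within a library. The signal was taken to be relative to library size as well. Low values of long genes lay close to whole multiples of a step, which gave an approximate number of fragments behind each value. The fragments per unit of value were 1.13 times those of wild-type in MiwiΔIns and 0.796 times in MiwiR371W. Piwil1 itself was at 20.3 in the wild-type library, 23.2 in the MiwiΔIns and 23.4 in the MiwiR371W library, which does not show the allele. All 14 round spermatid markers were measured, with summed values of 17731, 24038 and 19623 in that order of libraries, led by Prm1 and Tnp2. Most of each sum was Prm1, Tnp2 and, chosen after their values were seen, Prm2 and Tnp1. Gene by gene, 10 of 14 were above wild-type in MiwiΔIns (median log2 ratio 0.14), but only 6 in MiwiR371W (median −0.16). Between the mutants 11 were lower in MiwiR371W (median −0.36). The 16 spermatocyte markers summed to 3327, 2849 and 3124. Most of each sum was Ybx3, at 1538, 1222 and 1368, and Hspa2, at 958, 664 and 855. Gene by gene, 10 of the 16 were above wild-type in MiwiΔIns (median log2 ratio 0.06) and 9 in MiwiR371W (median 0.10). The spermatogonial markers, 13 of 15 measured, summed to 253, 268 and 322. Most of the spermatogonial sum was Ddx4, which spermatids also express. Without it the other 12, led by Id4, summed to 20.4, 22.5 and 24.6. Sertoli markers (9 of 12, led by Clu and Defb19) summed to 43.0, 30.0 and 32.4. Leydig markers (6 of 7, led by Scarb1 and Insl3) summed to 44.3, 44.5 and 32.9. Most of the Leydig sum was Scarb1, at 40.4, 37.0 and 26.4, while Insl3 was at 3.11, 4.92 and 5.52. Macrophage markers (6 of 8, led by Apoe and C1qb) summed to 9.57, 13.8 and 16.9. Peritubular and endothelial markers (all 9, led by Actg2 and Igfbp7) summed to 267, 215 and 178, most of it Actg2, at 257, 205 and 147. Without Actg2 the other 8 summed to 9.73 in MiwiΔIns and 30.6 in MiwiR371W, with wild-type near MiwiΔIns. Acta2, Vim and Igfbp7 were each at least 2-fold above both other libraries in MiwiR371W after adding 1 to each value, by 1.70, 1.48 and 1.96 on the log2 scale against wild-type and by 1.04, 1.54 and 2.05 against MiwiΔIns. Acta2 and Vim were chosen after their values were seen, and the part of such cells in the MiwiR371W values below was not tested. Neuronal markers (5 of 8, led by Map2 and Elavl4) summed to 78.7, 78.3 and 44.0.

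Ubb (ENSMUSG00000019505.7, chr11:62551171-62553213, plus strand) was among the most abundant transcripts of round spermatids. Its value was 3447 in the wild-type library, 3394 in the MiwiΔIns and 2856 in the MiwiR371W library, which ranked it 4, 6 and 6 of 17946 genes. The wild-type and MiwiΔIns libraries were nearly level and MiwiR371W was the lowest. The ratio to wild-type was 0.985-fold in MiwiΔIns and 0.829-fold in MiwiR371W, with log2 ratios of −0.02 and −0.27. Ubb alone held 0.532%, 0.486% and 0.453% of the summed values of all genes in the same order of libraries. Against MiwiΔIns the MiwiR371W library was at 0.841-fold (log2 −0.25). About 37348 to 58199 fragments lay behind each value, so counting error alone was near 0.01 on the log2 scale and the size of these ratios is not limited by depth. In such bulk libraries fewer cells of a type and less RNA per cell cannot be told apart.

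Rps27a, the fusion gene, lay far below Ubb. Its value was 38.1 in the wild-type library, 64.8 in the MiwiΔIns and 51.7 in the MiwiR371W library, from about 246 to 427 fragments. Both mutant libraries were above wild-type, with MiwiΔIns the highest. Ubb was 90.5, 52.4 and 55.2 times as high as Rps27a in wild-type, MiwiΔIns and MiwiR371W. The ratio of Rps27a to Ubb, which is free of any factor common to a library, was above that of wild-type by 0.79 on the log2 scale in MiwiΔIns (counting SD 0.12) and by 0.71 in MiwiR371W (counting SD 0.13). Between the mutants it differed by −0.08 (counting SD 0.11), within the counting error.

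**Figure D1:**
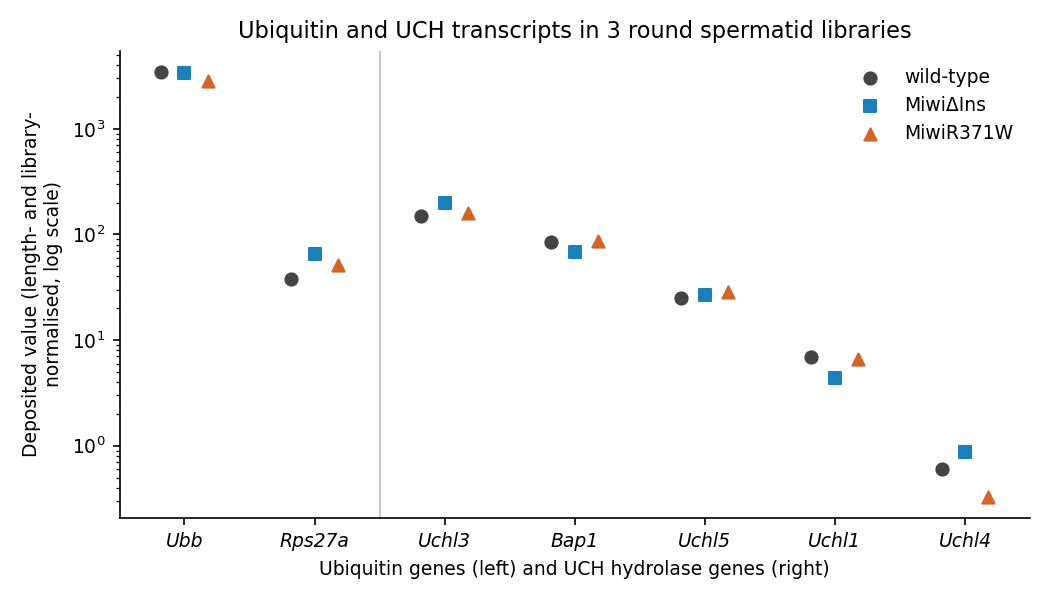
Deposited values (log axis) of Ubb, Rps27a and the 5 UCH family genes in the wild-type, MiwiΔIns and MiwiR371W libraries, 1 point per library. Ubb stands highest, between 2856 and 3447, and Uchl1 lies between 4.33 and 6.97.

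A called difference was one of at least 2-fold on the log2((x + 1)/(y + 1)) scale with at least 5 in the higher library. By this rule neither Ubb nor Rps27a was called in any of the 3 comparisons. Among all genes above that minimum, those called either way were 2.06% of 8550 in MiwiΔIns against wild-type, 3.30% of 8719 in MiwiR371W against wild-type and 4.48% of 8744 in MiwiR371W against MiwiΔIns. With so few calls in the background, 0 of 2 says little about these genes. Both comparisons with wild-type use the same wild-type library.

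Below that size, Rps27a had log2 ratios to wild-type of 0.75 in MiwiΔIns and 0.43 in MiwiR371W, with counting SDs of 0.115 and 0.125, and −0.32 between the mutants. Its transcript is short, at 791 nt against 1499 nt for Ubb. Over 8186 genes (genes are not replicates), the MiwiΔIns log2 ratio had a Spearman rho of −0.15 with transcript length and −0.43 with GC content. After removal of the trend with GC and length, the MiwiΔIns log2 ratio of Ubb moved from −0.02 to 0.12. The median of Ubb and Rps27a was then 0.37, against 0.36 before. Rps27a was not computed alone under that choice, and the part of length and GC content in its values was not tested.

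Near-identical copies limit how exactly these ubiquitin genes can be separated. Of the 50-base stretches in the Ubb transcript, 61.0% also occur in another annotated gene, most of them in Gm1821, and for Rps27a this figure was 72.0%. Gm1821, annotated as a pseudogene in the table, was at 92.8 in the wild-type library, 96.0 in the MiwiΔIns and 86.0 in the MiwiR371W library. Gm8430, a copy of Rps27a, was at 0.410, 2.04 and 1.20. Exons of Clhc1 overlap Rps27a on the opposite strand, and reads of the pair cannot be told apart without strand.

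Among the hydrolases, Uchl3 was the most abundant in every library. UCHL3 acts on ubiquitin precursors and also cuts the ubiquitin-like modifier NEDD8. The gene (ENSMUSG00000022111.8, chr14:101653967-101696125, plus strand) was at 148 in the wild-type library, 197 in the MiwiΔIns and 158 in the MiwiR371W library, ranking 1035, 804 and 925. MiwiΔIns was the highest library, at 1.33-fold of wild-type (log2 0.41, counting SD 0.0552), and MiwiR371W lay near wild-type at 1.07-fold (log2 0.09, counting SD 0.0608). Between the mutants the log2 ratio was −0.32. None of these reached 2-fold. The Uchl3 transcript has a GC content of 43.5%, and after removal of the trend with GC and length the MiwiΔIns ratio was 0.22. The copy Uchl4 holds 34.2% of the 50-base stretches of Uchl3, and was itself at 0.600, 0.870 and 0.330, about 3.15 to 10.5 fragments, too few for a comparison.

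Uchl5 stayed within 1.13-fold of wild-type in both mutant libraries. Its protein, UCH37, is a deubiquitinase of the proteasome cap, where it binds ADRM1, and it is also a partner of the INO80 chromatin remodeller through NFRKB. The gene (ENSMUSG00000018189.6, chr1:143777272-143807466, plus strand) was at 25.2 in the wild-type library, 26.6 in the MiwiΔIns and 28.6 in the MiwiR371W library, about 433 to 534 fragments. On the log2 scale these are 0.07 and 0.18 above wild-type, with counting SDs of 0.0916 and 0.0964. The MiwiΔIns ratio is within that error, and the MiwiR371W ratio is under 2 such SDs. No 50-base stretch of Uchl5 occurs in another annotated gene.

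Uchl1 had the lowest level and the largest ratio of the 4 members. UCHL1, also known as PGP9.5, is abundant in neurons and spermatogonia. The gene (ENSMUSG00000029223.9, chr5:66676091-66687234, plus strand) was at 6.97 in the wild-type library, 4.33 in the MiwiΔIns and 6.55 in the MiwiR371W library. MiwiΔIns was the low library, at 0.621-fold of wild-type (log2 −0.58), and MiwiR371W was at 0.940-fold (log2 −0.08). Against MiwiΔIns, MiwiR371W was at 1.51-fold (log2 0.50). Without the pseudocount the MiwiΔIns ratio was −0.69 on the log2 scale, with a counting SD of 0.255 from about 80.4 and 53.4 fragments. None of these ratios reached 2-fold, and differences between animals or sorts are not part of the counting SD. Of the 12 spermatogonial markers without Ddx4, summing to 20.4, 22.5 and 24.6, 7 were above and 5 below wild-type in MiwiΔIns. Of the 9 Sertoli markers, 7 were below wild-type there and 1 above, with sums of 43.0 in wild-type against 30.0. These counts include markers with a mean under 1, 6 of the 12 spermatogonial and 5 of the 9 Sertoli markers, whose directions are uncertain. All 4 Sertoli markers with a mean of at least 1 were below wild-type. Of the 7 such spermatogonial markers, Ddx4 included, 4 were above and 3 below. Neuronal markers without Map2 were at 2.61, 1.64 and 3.98. The part of other cells in the Uchl1 values was not tested. Exons of Uchl1os overlap Uchl1 on the opposite strand and share 16.2% of its 50-base stretches.

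**Figure D2:**
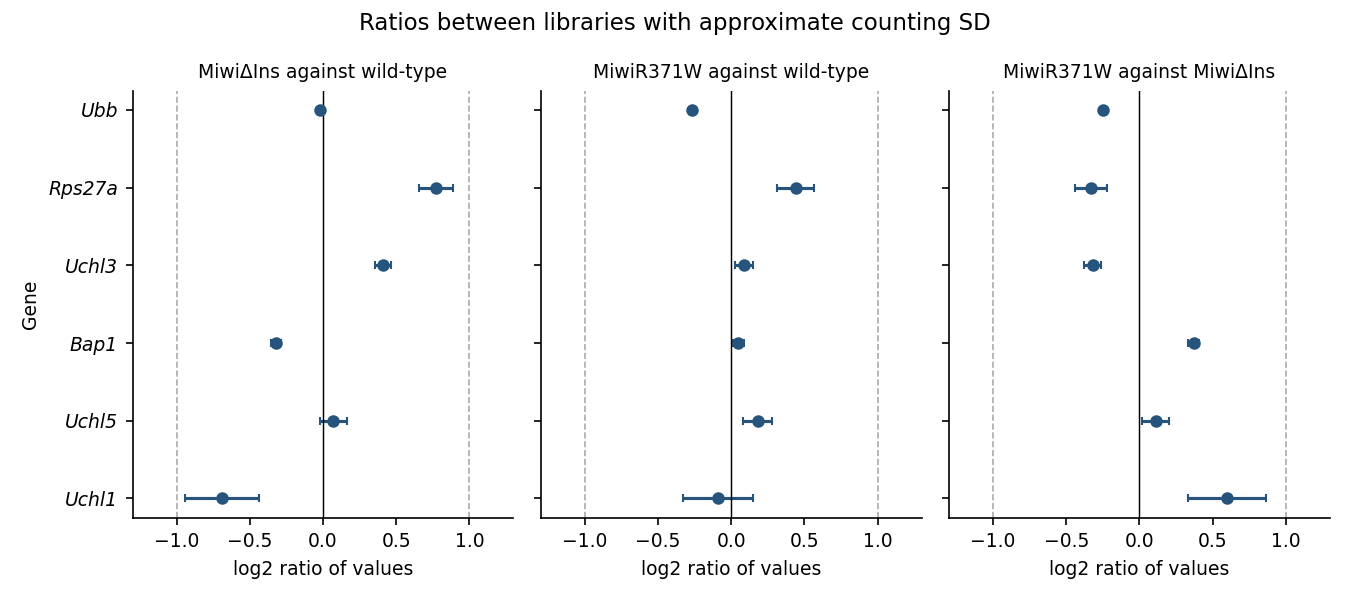
Log2 ratios of the deposited values without pseudocount for 6 genes in the 3 comparisons, with bars of 1 approximate counting SD that do not include differences between animals or preparations. Dashed lines mark a 2-fold difference, which no point reaches; the nearest are Rps27a (0.77) and Uchl1 (−0.69), both in MiwiΔIns.

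The 3 UCH members were in the order Uchl3, Uchl5, Uchl1 in all libraries, each step larger than the counting error. Uchl3 was 5.87, 7.42 and 5.52 times as high as Uchl5 in wild-type, MiwiΔIns and MiwiR371W. It was 21.3, 45.5 and 24.1 times as high as Uchl1, so that the MiwiΔIns library had the widest spread between these genes. Relative to wild-type, the ratio of Uchl3 to Uchl1 was 1.10 higher in MiwiΔIns on the log2 scale (counting SD 0.26) and 0.18 higher in MiwiR371W (counting SD 0.25). Bap1, the fourth UCH gene with an appreciable level, encodes a nuclear histone deubiquitinase and lay between Uchl3 and Uchl5. It was at 84.3, 67.6 and 87.5, with a log2 ratio of −0.31 in MiwiΔIns and 0.05 in MiwiR371W. Of the summed UCH value Uchl3 made up 55.9%, 66.5% and 56.2%, and Bap1 31.8%, 22.8% and 31.1%. Uchl5 made up 9.51%, 8.96% and 10.2%, and Uchl1 2.63%, 1.46% and 2.33%. Transcript GC content is 43.5% in Uchl3, 56.8% in Uchl1 and 54.9% in Bap1. After removal of the trend with GC and length, the MiwiΔIns log2 ratio was 0.22 rather than 0.41 for Uchl3. For Uchl1 it was −0.49 rather than −0.58. The part of GC content in these level ratios and shares was not tested.

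**Figure D3:**
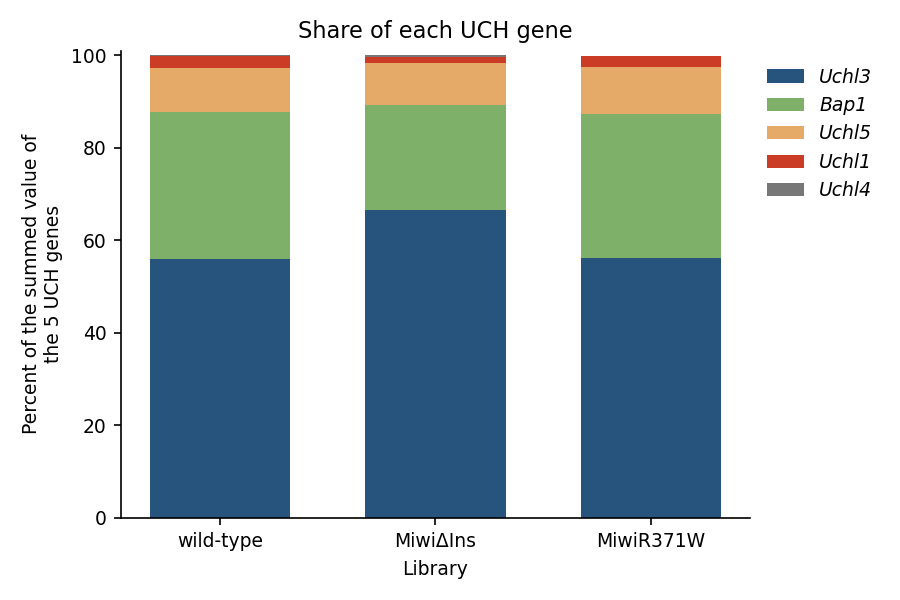
Percent of the summed value of the 5 UCH genes contributed by each in the wild-type, MiwiΔIns and MiwiR371W libraries, 1 bar per library. The Uchl3 share is 55.9%, 66.5% and 56.2%, and that of Uchl4 is barely visible at the top.

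In the joint order of Ubb, Rps27a and the UCH genes, neighbours were mostly separated by more than counting error. Uchl3 was above Rps27a by 1.96, 1.60 and 1.61 on the log2 scale, and Rps27a was above Uchl5 by 0.59, 1.29 and 0.85. Bap1 was above Rps27a by 1.15 in wild-type and 0.76 in MiwiR371W. In MiwiΔIns Bap1 and Rps27a were 0.06 apart with a counting SD of 0.074, and their order there cannot be given. Ubb was 23.2, 17.2 and 18.1 times as high as Uchl3.

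Genes with nearly the same pair of log2 ratios to wild-type were numerous, since only 3 libraries define the pattern. Among 6720 protein-coding genes with a mean of at least 5, 250 lay within 0.1 of Ubb in both ratios, 439 of Uchl5, 154 of Uchl3 and 41 of Uchl1. The nearest to Ubb were Rpl35 (larger difference 0.0071) and Gmppa (0.012), and to Uchl5 Nupl1 (0.0033) and Btbd7 (0.0046). One of the nearest to Uchl3 was Atp5c1 (0.0052), and the nearest to Uchl1 were Daxx (0.016) and Lrrc29 (0.020).

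The lists of genes around ubiquitin held 1 called gene, a modifier. Of 20 ubiquitin-like modifier genes 17 were measured, all with a mean of at least 1. In MiwiΔIns 14 of them were above wild-type, and the median log2 ratio was 0.31 against 0.03 over all genes, and 0 were called. After removal of the trend with GC and length the list median was 0.23, against 0.01 over all genes. In MiwiR371W 9 were positive, the median was 0.09 against 0.04, and 1 was called, where 3.30% of all genes were. That median was −0.03 over genes with a mean of at least 5. The called gene was Gabarapl2, an autophagy modifier of the ATG8 family, at 12.9 against 5.86 in wild-type (log2 1.02), and at 12.0 in MiwiΔIns (0.92). Its call was lost with a pseudocount of 5 and with scaling by the median of ratios. NEDD8, the modifier that UCHL3 cuts, had its gene Nedd8 at 43.8 in the wild-type library, 62.2 in the MiwiΔIns and 58.3 in the MiwiR371W library, a gene chosen after its values were seen.

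In the NEDD8 cycle, 19 of 22 genes had a mean of at least 1, with 11 positive in MiwiΔIns (median 0.06) and 9 in MiwiR371W (median −0.03). In this list and the lists of UCHL5 partners and of free ubiquitin recycling 0 genes were called, and with 2.06% to 4.48% of all genes called, lists of this size would often hold none. The cycle's most abundant members were Dcun1d1, a ligase component for cullin neddylation, at 305, 426 and 275, and the cullin Cul3, at 246, 234 and 267. All 19 partners of UCHL5 in the proteasome and INO80 complexes, Uchl5 itself left out, had a mean of at least 1, with 7 positive in MiwiΔIns (median −0.08) and 12 in MiwiR371W (median 0.16). The proteasome subunit gene Psmd2 was at 166, 154 and 166. Ruvbl2, which encodes an ATPase subunit of the INO80 complex and is not the Ino80 gene itself, was at 154, 115 and 125. The direct binding partners, chosen after their values were seen, were Adrm1, at 59.6, 55.3 and 56.8, and Nfrkb, at 5.16, 3.67 and 6.08.

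Of 14 genes that recycle free ubiquitin, a list that includes Uchl1 and Uchl3, 11 were measured, with 5 positive in MiwiΔIns (median −0.01) and 7 in MiwiR371W (median 0.28). Between the mutants 7 were positive and the median was 0.38 against 0.02 over all genes. Over genes with a mean of at least 5 these medians were 0.09 in MiwiR371W and 0.04 between the mutants, and with a pseudocount of 5 the latter was 0.22. The most abundant was the deubiquitinase gene Usp15, above Uchl3 in every library, at 184 in the wild-type library, 218 in the MiwiΔIns and 176 in the MiwiR371W library.

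**Figure D4:**
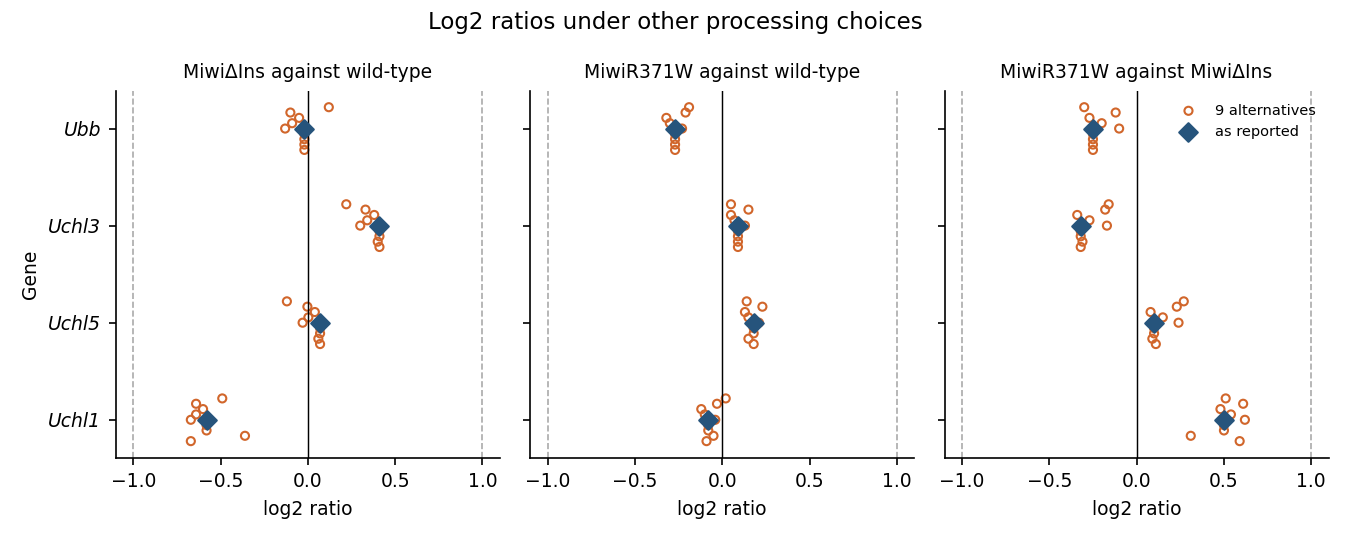
Log2 ratios of the 4 members in the 3 comparisons as reported (diamonds) and under 9 other processing choices (circles), of which the 2 that change the minimum cannot move a ratio, with dashed lines at 2-fold. No circle reaches 2-fold, and Uchl1 in MiwiΔIns ranges from −0.67 to −0.36.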

How the data were processed

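The deposited table gives, for each gene and each of 3 libraries, a signal that is neither counts nor logs. That it is relative to transcript length was read from the values, since low values step in inverse proportion to length. The step also differed between libraries, and the signal was taken to be relative to library size. The summed values were not equal, at 647897 in the wild-type library, 697804 in the MiwiΔIns and 630809 in the MiwiR371W library. Whether the signal is FPKM or TPM is not given in the sources used here. Trim Galore 0.5.0, STAR and RSEM, and mm10 (GRCm38), are named per the submitters' processing notes, without settings. Members and gene lists were chosen with earlier results of these data known.

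Ratios were log2((x + 1)/(y + 1)), computed with Python 3.11.15, numpy 2.4.6 and pandas 2.3.3. With 1 library per genotype no test was made. Approximate fragments were the value times effective transcript length, divided by a step of 0.0760 value × kb in the wild-type library, 0.0670 in the MiwiΔIns and 0.0955 in the MiwiR371W library, found in low values of single-transcript genes over 2500 nt. Counting SDs cover counting error only. The step search was tested on simulated data, made with a subtracted length of 250 nt only. In the wild-type, MiwiΔIns and MiwiR371W libraries it found subtracted lengths of 300, 350 and 250 nt, where 350 was the largest length searched. Low values lay on average 0.127, 0.147 and 0.121 steps from a whole number, against 0.25 for values without steps at a step fixed beforehand. The search chose the step and length that made this distance smallest, which by itself lowers it. How much of the gap to 0.25 is due to that was not tested. Fragment numbers, least of all those of MiwiΔIns, are therefore not exact. Gene models, lengths, GC content and coding sequences came from GENCODE M21 (GRCm38), matched by identifier for 17673 genes (98.5%). Ubiquitin units were counted in these coding sequences, because the RefSeq proteins named in the design were not used here. Some genes that the rule below would name, and the planned shares of each ubiquitin gene with their alternatives, are not reported here.

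All members, Rps27a and the UCH genes, called list members or else the 2 most abundant, and the 2 nearest genes by pattern were named. Other genes are said to have been chosen after their values were seen. The lists were ubiquitin coding genes, UCH hydrolases, ubiquitin-like modifiers, the NEDD8 cycle, UCHL5 partners, free ubiquitin recycling and 8 lists of cell type markers. Alternatives were other pseudocounts, minima, scalings and removal of the GC and length trend.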

Additional observations from a re-analysis of the deposited data

How the results depend on the processing

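No paired analysis was possible because each genotype had 1 library, and no replicate could be left out. Under the 7 choices that can move a ratio, 79 of 84 recomputed member ratios kept their sign and none reached 2-fold. After removal of the trend with GC content and length, the sign changed for Ubb in MiwiΔIns (0.12), Uchl5 in MiwiΔIns (−0.12) and Uchl1 in MiwiR371W (0.02), all against wild-type. Uchl5 in MiwiΔIns was also at −0.03 with libraries scaled to equal sums and at −0.0026 without mitochondrial and the 50 most abundant genes. These ratios are near 0 and the cause was not tested. Ubb is among those 50 genes, so there its ratio was taken on the scale of the remaining genes.

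Shares depend on what is summed. Among Uchl1, Uchl3 and Uchl5 alone, Uchl3 was at 82.2%, 86.4% and 81.8%, Uchl5 at 14.0%, 11.7% and 14.8%, and Uchl1 at 3.86%, 1.90% and 3.39%.

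Counts of called genes in the whole table moved with the rule. In MiwiΔIns against wild-type 111 higher and 65 lower became 33 and 17 with a pseudocount of 5, 176 and 126 with no minimum, and 64 and 27 with a minimum of 10. In MiwiR371W against wild-type 127 and 161 became 30 and 54, and 257 and 243, and the higher count became 60 with a minimum of 10. In MiwiR371W against MiwiΔIns 111 and 281 became 31 and 143 with a pseudocount of 5, and 172 and 187 with equal sums. The higher count became 248 with no minimum and 56 with a minimum of 10. With equal sums the median of all genes moved to 0.15, so the member ratios between the mutants are then to be read relative to it. Of 90 list medians 8 moved by at least 0.1. Depth limits Uchl1 and Uchl4 most.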

Other observations

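Some genes of free ubiquitin recycling, chosen after their values were seen, differed between libraries while none was called. Uba1, the main ubiquitin-activating enzyme, was at 68.5 in the wild-type library, 64.0 in the MiwiΔIns and 40.3 in the MiwiR371W library (log2 −0.75 to wild-type). Nploc4, a cofactor of the segregase VCP, was highest in MiwiR371W, at 47.7, 44.6 and 76.3 (log2 0.67). Plaa, which binds ubiquitin and VCP, was lowest in wild-type, at 1.33, 3.04 and 4.39 (log2 1.21 in MiwiR371W and 0.79 in MiwiΔIns), and stayed under the minimum of 5. Among the modifier genes Ubl5 was at 112, 183 and 97.0, with a log2 ratio of −0.91 between the mutants.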
